A study of Rattus norvegicus with 12 samples.

Results

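The nuclear-encoded subunits of the oxidative phosphorylation machinery were described in brain RNA of 12 blast-exposed rats. Members and their complex were taken by gene symbol alone. They were the Nduf genes with a, b, c, s or v and a digit (complex I) and the 4 subunits of succinate dehydrogenase. The Uqcr genes and Cyc1, the Cox4 to Cox8 genes, and the genes beginning with Atp5 made up the rest. By that rule Ndufa4 and Ndufa4l2 count in complex I and Ndufab1 in none, whichever complex holds the protein. Complex I assembly factors and the pseudogene Cox6c-ps1 were left out. This gave 82 of the 17494 genes in the count table: 36 for complex I, 4 for complex II, 9 for complex III, 16 for complex IV and 17 for complex V. The subunits that mitochondrial DNA encodes are not analysed here, so every value below is of nuclear transcripts only.

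Adult male Long-Evans rats were exposed to 3 low-level blasts at 10 weeks of age, given on 3 days, and sacrificed 29 weeks after blast. From week 2 after blast, 6 rats (blast-boldine) ate chow with boldine, an alkaloid of the boldo tree, at 500 mg/kg of chow, and 6 rats (blast-controls) ate the same chow without it. All 12 rats were wild type and all were blast-exposed. No values of sham-exposed rats, or of boldine without blast, were analysed here, so an effect of blast on these genes cannot be read from them. The labels call the tissue brain and the study's methods call it hippocampus, and 1 stranded library of total RNA depleted of ribosomal RNA was counted per rat.

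Oxidative phosphorylation is the process in the inner mitochondrial membrane by which electrons from NADH and succinate pass through complexes I to IV to oxygen, while protons are pumped out and then return through complex V, which makes ATP. Complexes I, III, IV and V mix subunits encoded in the nucleus with core subunits encoded in mitochondrial DNA, and complex II is encoded in the nucleus alone. Neurons draw most of their ATP from this pathway. The transcription factors NRF1 and GABPA are known for binding near the starts of many of its nuclear genes, and several complex IV subunits have a paralog used in muscle, lung or testis.

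The total counts per rat lay between 10148474 and 40850106, except in blast-control rat 6, which had 74008. Levels are given as CPM, in which each count is divided by the size of its library as TMM normalization adjusts it. On that scale 1 count in rat 6 was worth 15.8 CPM, and 3 counts, taken as the smallest detected value, were worth 47.5 CPM. In the other 11 rats 3 counts were worth between 0.0658 and 0.307 CPM. These limits cover counting error only. The library suffixes from 1 to 6 occur on 2 libraries each. Rats were assigned to 2 sets with each suffix once per set and with rat numbers rising with the suffix. The rule of rising numbers was assumed and is not in the labels. Of the 4 assignments that it allows, the one that followed the first principal component of these data was used. Set A held blast-controls 1, 7 and 9 and blast-boldine rats 20, 32 and 35, and set B held blast-controls 4, 5 and 6 and blast-boldine rats 12, 17 and 19. The labels name no run or date for the sets. All 6 markers of hippocampal neurons on the list used (Rbfox3, Snap25, Syt1, Prox1, Wfs1 and Fibcd1) passed the filter on low counts. Their summed level was 2519 to 3302 CPM in blast-boldine rats and 2273 to 3518 CPM in the 5 blast-controls other than rat 6. In rat 6 it was 8581 CPM, far above every other rat. The astrocyte markers summed to 2280 CPM in rat 6, within the 2183 to 3354 CPM of the other rats. The cause of the high neuronal sum in rat 6 was not tested. In bulk tissue, fewer cells of a type and less RNA per cell cannot be told apart.

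Of the 82 members, 71 had a RefSeq promoter (assembly GRCr8, 250 bases before the annotated start). The NRF1 motif (GCGCA, then any base, then GCGC), searched on both strands, was in 11 of the 71 (15.5%) and in 5.44% of the 18999 promoters of protein-coding genes. 1 of these 11 promoters, that of Ndufs6, lies on chromosome 1, while the counted row of Ndufs6 is on chromosome 2. Ndufs6 is kept in the counts and medians by motif. The letters CCGGAAG of the ETS motif that GABPA recognises were in 20 of the 71 (28.2%) and in 9.52% of all. Only the promoter of Atp5me held both, and 41 of the 71 held neither. AAGATGGC, the YY1 motif, was in 2 (2.82%, against 1.71%), and TATAAA was in 7 (9.86%, against 12.3%). NRF1 letters were in 6 of 32 complex I promoters, 1 of 4 in complex II, 1 of 6 in complex III, 0 of 13 in complex IV and 3 of 16 in complex V. The GC content of the 250 bases had a median of 55.6% over the members and of 54.8% over all. A match is a description of letters and not a bound site. The 120 bases before the start are given for 5 members that the results name, 5′ to 3′ in the direction of the gene, with matches to the NRF1 or ETS letters in capitals. Ndufa11 and Atp5mc2 differed most between the library sets, Atp5me and Uqcrh had the smallest p of complexes V and III, and Sdha is the catalytic subunit of complex II.
Ndufa11 (GRCr8 chr9:1637494-1637613, plus strand): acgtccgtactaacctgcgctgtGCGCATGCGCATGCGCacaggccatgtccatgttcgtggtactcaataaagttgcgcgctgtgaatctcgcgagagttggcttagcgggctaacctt
Atp5mc2 (GRCr8 chr7:135678219-135678338, minus strand): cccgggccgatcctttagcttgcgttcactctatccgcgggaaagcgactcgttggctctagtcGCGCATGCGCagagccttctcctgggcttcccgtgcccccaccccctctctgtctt
Atp5me (GRCr8 chr14:1464740-1464859, plus strand): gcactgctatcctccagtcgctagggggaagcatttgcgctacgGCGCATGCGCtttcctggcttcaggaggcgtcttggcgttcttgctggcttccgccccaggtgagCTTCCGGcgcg
Uqcrh (GRCr8 chr5:134790883-134791002, minus strand): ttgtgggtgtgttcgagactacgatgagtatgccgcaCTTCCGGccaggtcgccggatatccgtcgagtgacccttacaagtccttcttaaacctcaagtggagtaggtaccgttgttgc
Sdha (GRCr8 chr1:30764433-30764552, plus strand): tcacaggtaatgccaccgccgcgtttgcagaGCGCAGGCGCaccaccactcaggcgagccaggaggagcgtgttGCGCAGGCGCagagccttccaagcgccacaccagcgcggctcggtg
In Ndufa11 a pair of NRF1 matches overlap each other, and in Sdha a pair lie apart. CTTCCGG is the ETS motif read on the other strand.

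Levels were compared between genes as CPM per kb of exon, as means over the 11 rats other than rat 6. The highest levels were those of Cox4i1, a subunit of complex IV (418 CPM per kb), Atp5if1, the inhibitor of ATP hydrolysis by complex V (410), and the catalytic subunits of complex V, Atp5f1b (386) and Atp5f1a (305). The mean of Atp5if1 mixes unlike levels, at 88.9 to 115 CPM in library set A and 255 to 430 CPM in set B. Atp5f1b differed the other way, at 664 to 1046 CPM in set A and 363 to 600 CPM in set B. The order is thus of means over both sets. In all, 10 members lay above 200 CPM per kb. By complex, the median per-kb level was 83.0 in complex I, 84.8 in complex II, 91.2 in complex III, 125 in complex IV and 151 in complex V. In complex I the highest was Ndufb9, an accessory subunit (221). In complex II the order was Sdha (148), Sdhb (86.7), Sdhc (82.9) and Sdhd (63.4), the catalytic flavoprotein first and a membrane anchor last. In complex III the highest was Uqcr11 (210) and the lowest Uqcrq (38.9), both small accessory subunits.

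Paralogs that are known from other tissues were low or not detected. Cox4i2, the lung form of Cox4i1, was at 1.81 CPM per kb. Cox6a2, the muscle form of Cox6a1 (261), was at 0.46, and Cox6b2, the testis form of Cox6b1 (114), was at 2.60. The Cox7a2 gene, of the same complex, was at 34.2. Cox8a was at 189 CPM per kb, the muscle form Cox8b at 1.75, and the testis form Cox8c had 0 counts in each of the 12 rats, which allows up to 3 counts per rat. Ndufa4l2, a paralog of Ndufa4 (131), was at 1.84. The 3 genes of subunit c of complex V, which encode 1 mature protein behind different import signals, lay close to each other at 86.8 (Atp5mc1), 82.6 (Atp5mc2) and 113 (Atp5mc3). These 3 paralogs, and members with processed copies elsewhere in the genome, may share reads that the counting did not place. The muscle markers Myh6, Actc1 and Ckm summed to between 0.785 and 5.66 CPM in the 11 rats. Cox6a2, Cox8b and Cox8c were the 3 members that did not pass the filter on low counts, which left 79 for the tests.

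**Figure D1:**
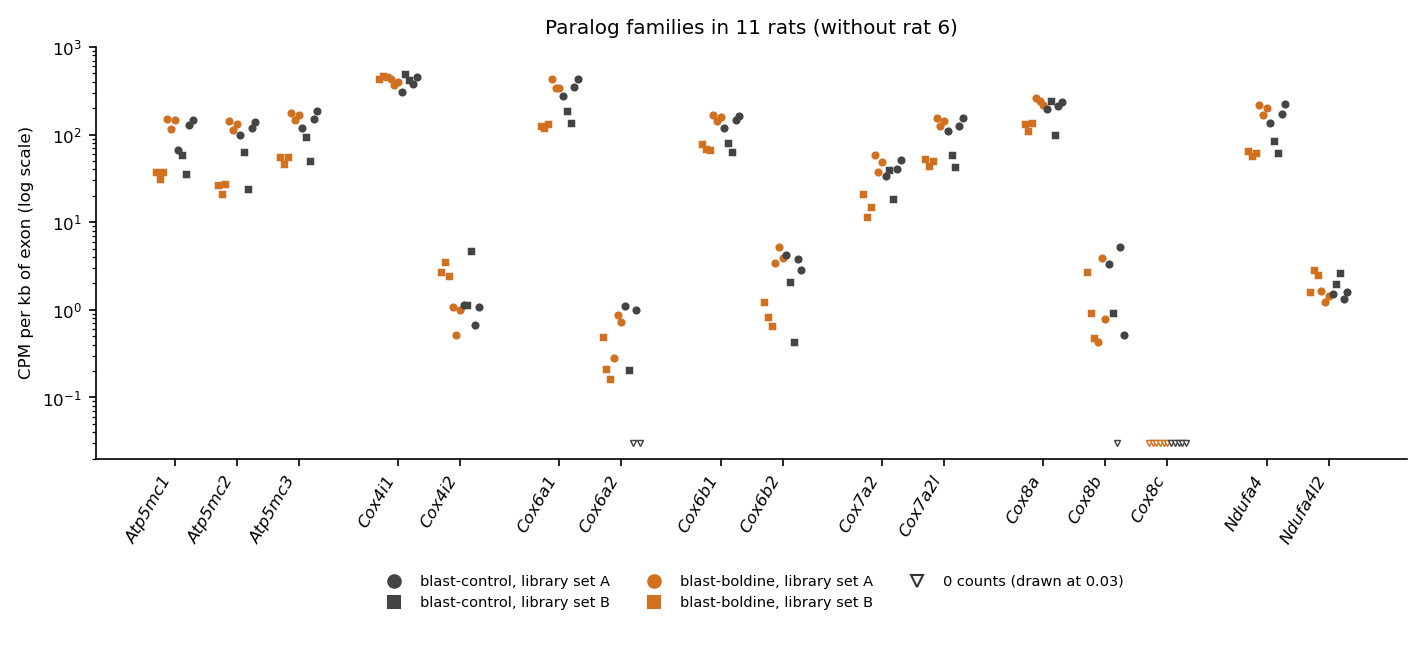
CPM per kb of exon (log axis) of 16 paralogous subunit genes in 11 rats, with 1 point per rat, circles for library set A and squares for library set B. The main brain forms lie above 10 CPM per kb in each of the 11 rats, and the forms of other tissues lie below 10, with Cox8c at 0 counts throughout.

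The first question was whether boldine-fed rats differed from blast-controls in these transcripts, by complex. The summed level of each complex overlapped widely between the groups. For complex I the sum was lowest at 1977, at a median of 2450 and highest at 3228 CPM in blast-boldine rats, and 1837, 2467 and 3092 CPM in blast-controls. For complex II the values were 459, 589 and 719 CPM in blast-boldine rats and 332, 582 and 719 CPM in blast-controls. The lowest blast-control in both complexes was rat 6.

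Complex III summed to 670, 863 and 1192 CPM (lowest, median and highest) in blast-boldine rats and to 703, 893 and 1165 CPM in blast-controls. Complex IV summed to 823, 1083 and 1516 CPM against 837, 1095 and 1523 CPM. Complex V summed to 1936, 2505 and 3379 CPM against 2074, 2468 and 3499 CPM. In none of the 5 complexes did the groups separate. The ratio of the group means, blast-boldine over blast-control, was 1.04, 1.07, 1.0, 0.989 and 1.0 for complexes I to V, and 0.987, 0.987, 0.968, 0.965 and 0.965 without rat 6.

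The shares of the complexes in the summed level of the 82 members were close to constant. Without rat 6, complex I took 32.8% ± 0.991 of that sum with boldine (SD, n = 6) and 32.4% ± 1.36 without it (SD, n = 5), and complex V took 33.5% ± 0.416 and 33.8% ± 1.13. Complex IV lay between 13.7% and 15.2% in the 11 rats. In rat 6 the 82 members had 377 counts in all. Complex II took 5.57% of their level there, on 21 counts, below the 7.17% to 8.11% of the other rats. Complex IV took 16.7% in rat 6, on 63 counts. No interval was computed for these shares, so counting error alone was not set aside.

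**Figure D2:**
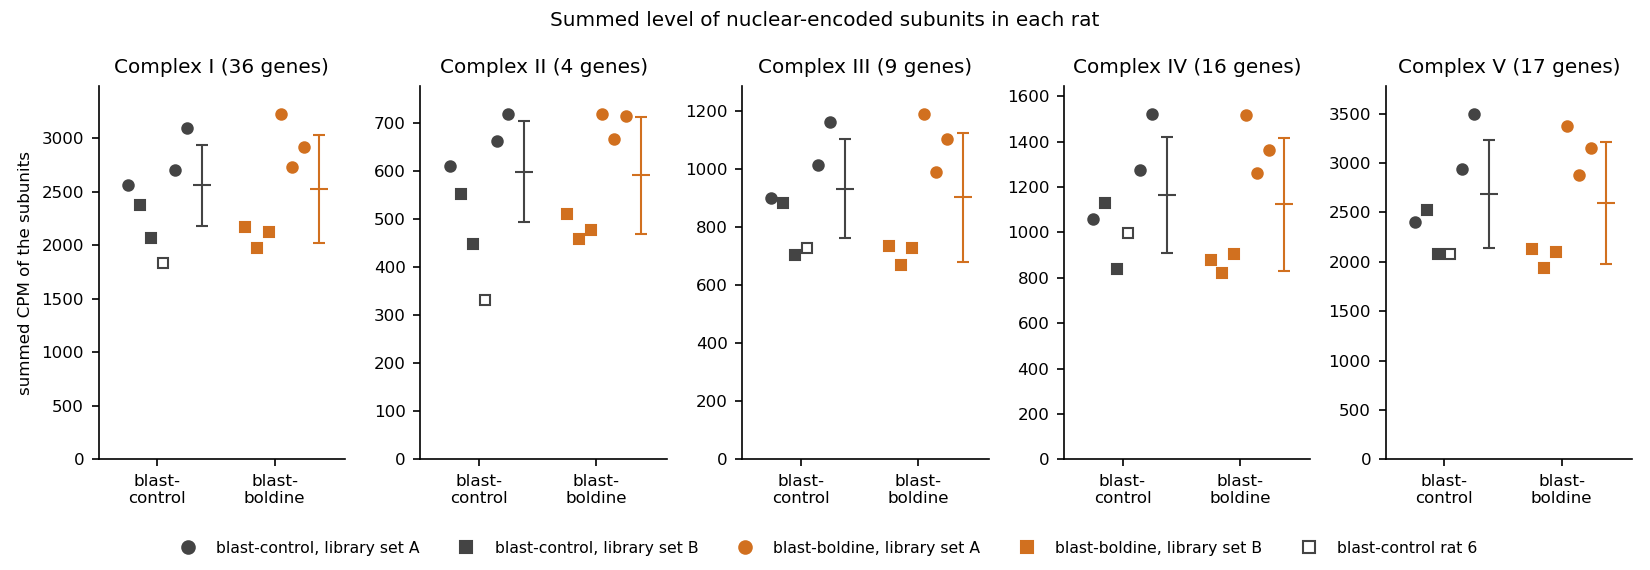
Summed CPM of the members of each complex (vertical axes from 0) in each rat, by treatment, with circles for library set A, squares for set B and an open square for blast-control rat 6. Bars are the mean ± SD without rat 6. In each complex the blast-boldine circles lie above the blast-boldine squares, while the treatments overlap.

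No member passed the test for a treatment difference. The test was the quasi-likelihood test of edgeR over the 12325 genes past its filter, with treatment as the only term. The smallest adjusted p among the 79 members was 1.0 (Benjamini-Hochberg, edgeR, 6 rats per group). At an unadjusted p under 0.05 there were 0 of 79 members, against a background of 1.07% of the genes tested (0.552% higher and 0.519% lower). DESeq2 also called 0 of 81 members at that p, with a background of 0.542%, and limma-voom called 1 of 79, Ndufb4, with a background of 0.933%. Without rat 6, edgeR again called 0 of 79 members, with a background of 1.40%. No member had blast-boldine and blast-control rats that did not overlap, with a background of 0.0811% (0.146% without rat 6).

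The log2 fold changes of the members lay close to 0. Their median was -0.02 in all 12 rats, and the median of all genes tested was 0.0046. By complex the median was -0.03 (I), 0.03 (II), -0.01 (III), -0.03 (IV) and 0.0098 (V). Without rat 6 it was -0.07, -0.03, -0.07, -0.05 and -0.03, and -0.06 over the 79 members. Of the 79, 31 were above 0 and 48 below, and 74 lay within 0.25 of 0. The tally turned with 1 rat left out. It was 45 to 60 of 79 above 0 without blast-controls 1, 7 or 9 or blast-boldine rats 12, 17 or 19 (most without rat 17), and 18 to 31 without any 1 of the other rats (fewest without rat 20). The median of every complex took both signs, from -0.13 to 0.07 in complex I, -0.06 to 0.12 in II, -0.11 to 0.09 in III, -0.15 to 0.07 in IV and -0.14 to 0.13 in V.

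A p that misses the threshold does not show that the groups were alike, so the intervals were read too. The 95% confidence interval of the fold change lay within 2-fold either way for 60 of 79 members: 29 of 36 in complex I, 4 of 4 in complex II, 7 of 9 in complex III, 7 of 13 in complex IV and 13 of 17 in complex V. With the library set as a covariate and without rat 6, the estimated common dispersion fell from 0.104 to 0.0241 and the intervals of 78 of 79 members lay within 2-fold. The set was chosen to follow these data, so a fall was built in. The other 3 assignments gave 0.0620, 0.101 and 0.111 in all 12 rats, and without rat 6 and without the covariate 57 of 79 intervals lay within 2-fold. With the covariate the member outside was Ndufa10l1. That fit called 1 of 79 members at an unadjusted p under 0.05, Ndufb4, with a background of 5.35%, and 0 at an adjusted p under 0.05. Ndufb4 was also the 1 member called with library set as a covariate in all 12 rats (background 3.85%) and by DESeq2 with library set without rat 6 (background 4.69%), and without blast-control rat 9 edgeR called 2 of 79 (background 0.984%), Ndufb4 and Ndufa10l1.

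**Figure D3:**
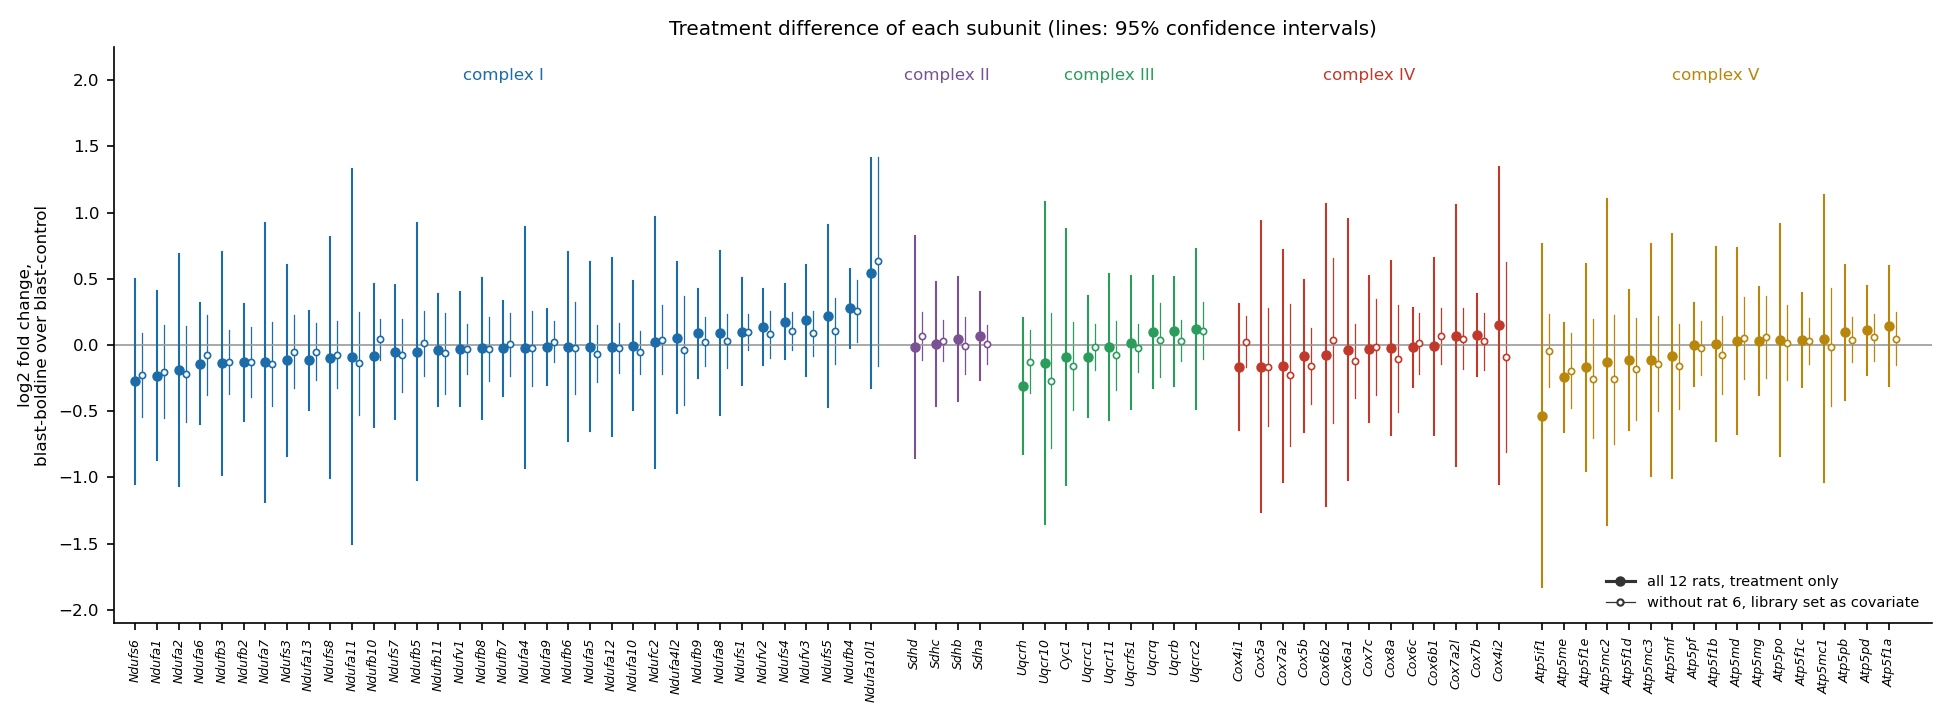
Log2 fold change of each of 78 members, blast-boldine over blast-control, with 95% confidence intervals, by complex and in rising order. Filled points are the fit on all 12 rats and open points the fit without rat 6 with library set as a covariate. Each filled point's interval includes 0, and the intervals are shorter in the second fit.

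Ndufb4, an accessory subunit of the membrane arm of complex I, had the smallest p of the members. Its gene spans bases 63063802 to 63070426 of chromosome 11 (mRatBN7.2). Its lowest, median and highest levels were 52.2, 56.2 and 69.8 CPM in blast-boldine rats and 31.7, 48.2 and 57.6 CPM in blast-controls. All 6 blast-boldine rats were above the blast-control median and 2 were above the highest blast-control, so the groups overlapped. The log2 fold change was 0.28 (SE 0.14, unadjusted p = 0.0659 and adjusted p = 1.0 in edgeR). Without rat 6, in which Ndufb4 had 2 counts, it was 0.25 (SE 0.12, unadjusted p = 0.0612 in edgeR). With library set as a covariate and without rat 6 it was 0.26 (SE 0.11, unadjusted p = 0.0333 and adjusted p = 0.898 in edgeR). By exact permutation (two-sided), the difference in mean log2 CPM gave p = 0.0173, where the smallest p that 6 against 6 rats allow is 0.00216, and p = 0.0216 without rat 6. Ndufb4 was among the 38 members tested that way because its edgeR p was the smallest of 79 on the same data, so the permutation p follows that choice and was not adjusted for it. The difference in log2 CPM was 0.12 in set A and 0.46 in set B without rat 6.

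Ndufa10l1 has the row with the next smallest p, and its row is 1 exon of 1434 bases on chromosome 6. It is a copy of Ndufa10, a subunit of complex I, and reads that match both genes make its level uncertain. The lowest, median and highest levels were 2.08, 5.62 and 8.75 CPM in blast-boldine rats and 0, 2.89 and 8.17 CPM in blast-controls, with the 0 in rat 6. The groups overlapped over nearly their whole range, and the log2 fold change was 0.54 (SE 0.40, unadjusted p = 0.201 in edgeR). Without blast-control rat 9, the highest blast-control, it was 1.0 (SE 0.36, unadjusted p = 0.0158, adjusted p = 1.0 in edgeR).

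Uqcrh, the hinge subunit of complex III (chromosome 5, bases 129545980 to 129554173 of mRatBN7.2), was at 94.6, 101 and 115 CPM (lowest, median and highest) in blast-boldine rats. In blast-controls the values were 88.1, 113 and 317 CPM, with the highest in rat 6 (20 counts). The log2 fold change was -0.31 (SE 0.24, unadjusted p = 0.214 in edgeR) and -0.13 (SE 0.14) without rat 6. Atp5me, the small e subunit of complex V, on chromosome 14 from 1319868 to 1320996, was at 34.0, 47.0 and 60.2 CPM in blast-boldine rats and 46.6, 54.8 and 95 CPM in blast-controls. Again the highest blast-control was rat 6, with 6 counts. The log2 fold change was -0.24 (SE 0.19, unadjusted p = 0.219 in edgeR), and -0.20 (SE 0.17) without rat 6. Within set B the 3 blast-boldine rats (34.0 to 40.6 CPM) were below blast-controls 4 and 5 (53.3 and 56.4 CPM), and within set A they were not.

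Atp5if1 (chromosome 5, bases 144738950 to 144742668 of mRatBN7.2) had the largest fold change below 0 in edgeR, and it was gone when 1 library was left out. Its lowest, median and highest levels were 98.6, 198 and 314 CPM in blast-boldine rats and 88.9, 184 and 1013 CPM in blast-controls. The level of 1013 CPM was 64 counts in rat 6, and the next blast-control was at 430 CPM. The log2 fold change was -0.53 (SE 0.60) in all 12 rats and 0.03 (SE 0.50) without rat 6, on the other side of 0. Cox4i1 followed the same course, from -0.17 (SE 0.22) to 0.05 (SE 0.12), with 665 CPM (42 counts) in rat 6 and 216 to 339 CPM in the other blast-controls.

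**Figure D4:**
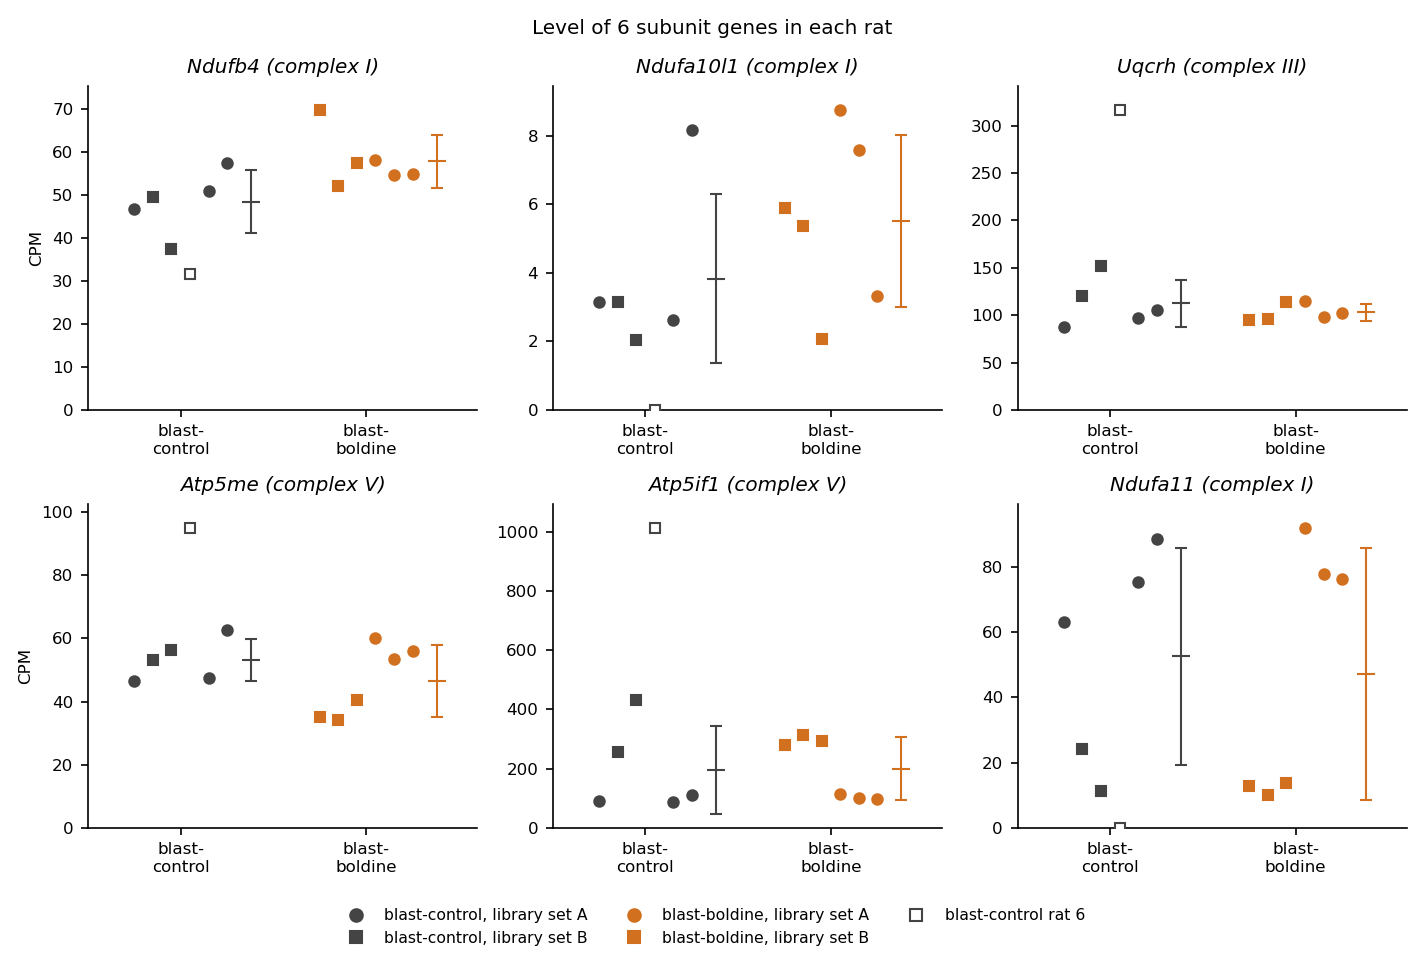
CPM (vertical axes from 0) of Ndufb4, Ndufa10l1, Uqcrh, Atp5me, Atp5if1 and Ndufa11 in each of 12 rats, by treatment, with circles for library set A, squares for set B and an open square for blast-control rat 6. Bars are the mean ± SD without rat 6. Rat 6 is far above the other rats for Uqcrh, Atp5me and Atp5if1, and Ndufa11 and Atp5if1 split by library set within both treatments.

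The other subunits listed as core were compared by their means. For complex IV, whose catalytic core mitochondrial DNA encodes, that list held nuclear accessory subunits. In complex I, Ndufv1, which binds NADH, had a mean of 138 ± 38.5 CPM with boldine (SD, n = 6) and of 144 ± 29.1 CPM in the blast-controls other than rat 6 (SD, n = 5). Ndufs1, an iron-sulfur subunit, was at 205 ± 33.9 and 200 ± 46.1 CPM. Their log2 fold changes in all 12 rats were -0.03 (SE 0.20) and 0.10 (SE 0.19). Neither difference in means exceeded the SD between rats, which includes the difference between the library sets that each group mixes. For Ndufs1, exact permutation gave p = 0.396 in all 12 rats, and p = 0.04 when labels were permuted within library sets. Within sets and without rat 6, in which Ndufs1 had 7 counts, exact permutation gave p = 0.525. These p were not adjusted for the 38 members tested that way.

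In complex II, Sdha was at 337 ± 40.0 CPM in blast-boldine rats and 340 ± 36.0 CPM in blast-controls without rat 6, with a log2 fold change of 0.07 (SE 0.16) in all 12 rats and -0.02 (SE 0.11) without rat 6. Sdhb, the iron-sulfur subunit, was at 83.3 ± 18.5 and 85.0 ± 14.1 CPM. In complex III, Uqcrc1, a core protein of the matrix side, was at 141 ± 41.7 and 146 ± 31.7 CPM, Uqcrfs1, the Rieske protein, at 90.7 ± 22.3 and 94.6 ± 17.8 CPM, and Cyc1, cytochrome c1, at 85.6 ± 51.6 and 96.4 ± 41.7 CPM. For each of these 5 subunits the SD was larger than the difference between the means. Each group held rats of both library sets, so these SDs include the difference between the sets. For Cyc1 the log2 fold change was -0.09 (SE 0.45) in all 12 rats. With library set as a covariate and without rat 6 it was -0.16 (SE 0.15).

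In complex IV, the accessory subunit Cox5a was at 54.5 ± 33.6 CPM in blast-boldine rats and 64.3 ± 34.8 CPM in blast-controls without rat 6, and Cox6c at 103 ± 13 and 103 ± 16.9 CPM. In complex V, Atp5f1a was at 567 ± 81.6 and 559 ± 108 CPM, and Atp5f1b at 652 ± 270 and 710 ± 262 CPM. The log2 fold change in all 12 rats was 0.15 (SE 0.21) for Atp5f1a, with an interval from 0.807-fold to 1.52-fold, and 0.01 (SE 0.34) for Atp5f1b, with an interval from 0.606-fold to 1.67-fold. With library set as a covariate and without rat 6 the interval of Atp5f1b narrowed to between 0.772-fold and 1.16-fold.

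Within each library set the members leaned one way, and each lean shrank or turned when its most extreme blast-control was left out. In set A, 76 of 79 members (96.2%) had a higher mean log2 CPM in blast-boldine rats, against 54.5% of all genes tested, with a median difference of 0.11. In set B without rat 6, 16 of 79 (20.3%) were higher, against 50.5% of all genes, with a median difference of -0.15. The sign was opposite in the sets for 62 of 79 members, against 48.0% of all genes. Blast-control 1, the most deeply sequenced rat, was the lowest of set A for 52 of the 64 members that were higher in set A. Blast-control 4 was the highest of the set B rats other than rat 6 for 52 of these 64. Rats 1 and 4 were left out because they were these extremes, so the values without them are a description. No other rat was left out within a set, so the weight of these rats against others was not tested. Without rat 1 the share in set A was 45 of 79 (57.0%, against 54.0% of all genes) and the median 0.0082. Without rat 4, which leaves 1 blast-control in set B, 49 of 79 members were higher (62.0%, against 49.1% of all genes) and the median was 0.07, on the other side of 0.

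The members differed far more between the library sets than between the treatments. These differences are a description with no test, since the sets were assigned from these data. Without rat 6, the difference in mean log2 CPM, set A minus set B, had a median of 0.60 over the 79 members and of 0.02 over all genes tested. It was above 0 for 64 members and below 0 for 15. More than 2-fold higher in set A were 26 of 79 members, with a background of 7.45%, and more than 2-fold lower were 2, with a background of 9.46%. The sets did not overlap for 40 members that were higher in set A, with a background of 24.2%, and for 5 that were lower, with a background of 24.8%. The ratio of the summed levels, A over B, was 1.34 for complex I, 1.39 for complex II, 1.43 for complex III, 1.46 for complex IV and 1.41 for complex V.

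The order within a complex was wide. Ndufa11, an accessory subunit that sits at the junction of complex I with complex III, was at 63.2 to 91.9 CPM in set A and 10.2 to 24.2 CPM in set B, a difference of 2.49 on the log2 scale. Atp5mc2 was at 62.4 to 89.3 and 13.1 to 40.0 CPM (2.04), and Uqcr10, a small subunit of complex III, at 49.2 to 72.7 and 9.42 to 33.5 CPM (2.0). Next among these were Ndufa7 (1.80), the testis form Cox6b2 (1.78) and Cox5a (1.74), and the sets did not overlap for any of these 6 members.

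Other members of the same complexes did not share the difference. Ndufb4 (0.04) and Cox7b (0.0041) lay near 0. Ndufs5, an accessory subunit of complex I, was at 20.7 to 32.6 CPM in set A and 43.0 to 57.3 CPM in set B (-0.93), and Uqcrb, a subunit of complex III, at 51.1 to 62.7 and 76.4 to 89.9 CPM (-0.59). Ndufv3 (-0.60) and Ndufb10 (-0.49) were also lower in set A without overlap. Atp5if1 was at 88.9 to 115 CPM in set A and 255 to 430 CPM in set B, a difference of -1.63, on the other side of 0 from the c subunit genes Atp5mc1 (1.63), Atp5mc2 (2.04) and Atp5mc3 (1.42). Of the paralogs, Cox4i2 was lower in set A (-1.41) at 0.367 to 3.27 CPM, and its sets overlapped.

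**Figure D5:**
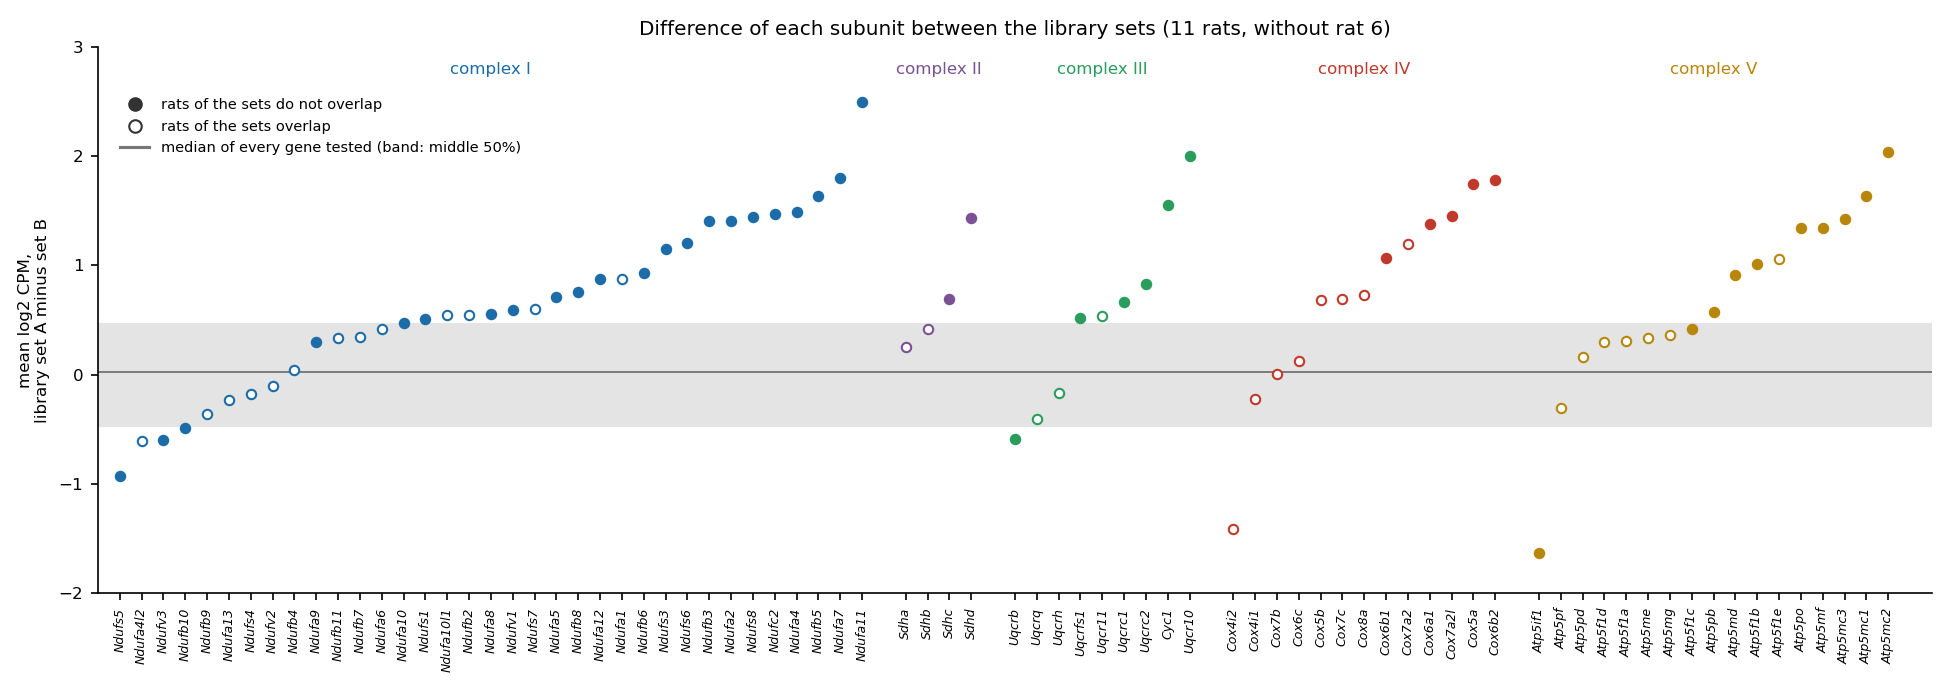
Difference in mean log2 CPM between library set A and library set B (vertical axis) for each of 78 members in 11 rats, by complex and in rising order, with filled points where the rats of the sets do not overlap. The grey line and band are the median (0.02) and the middle 50% of all genes tested. Most members lie above the band, from Ndufa11 at 2.49 down to Atp5if1 at -1.63.

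Several other measures moved with the library sets, and their part in the members' difference was not tested. The members are short, with 289 to 2477 exon bases and a median of 638, against 2225 over all genes tested. With all genes ranked by exon length in 10 bands of equal size, the median difference fell from 0.30 in the band of the shortest (59 to 1037 bases) to -0.28 in that of the longest. In the band of the shortest, the 55 members had a median of 0.69. Across the 79 members, exon length and the difference had Pearson's r = -0.14 and Spearman's rho = -0.16, a description over genes that share the same 11 libraries. The difference had a median of 0.71 in the 11 members with NRF1 letters and 0.68 in the 57 without them that passed the filter, and of 0.47 and 0.70 with and without ETS letters.

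Cell type markers moved with the sets as well, here without rat 6. The neuronal markers summed to 2273 to 3118 CPM in set A and 3037 to 3518 CPM in set B, and 4 of 6 were lower in set A. Of oligodendrocyte markers, Mbp and Mog were higher in set A by 0.68 and 0.92 on the log2 scale. The blood markers Hbb (2.06) and Hba-a2 (0.35) were higher in set A too, with sums of 73.2 to 113 CPM against 29.4 to 74.9 CPM. The microglial Csf1r, P2ry12 and Cx3cr1 summed to 219 to 239 and 86.7 to 152 CPM, and the astrocyte markers to 2633 to 3354 and 2183 to 2907 CPM. All members of both lists were higher in set A. The endothelial markers Cldn5 and Pecam1 were lower in set A (26.5 to 37.4 against 46.5 to 57.6 CPM), and the choroid plexus markers Ttr, Folr1 and Kl ranged from 12.2 to 1058 CPM in set A and from 7.0 to 1057 CPM in set B. None of these markers was at 0 in all rats, and their part in the result was not tested.

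Genes around the pathway were compared between the treatments as well. The lists held 43 assembly factors, 17 genes of the TCA cycle and 18 regulators of mitochondrial biogenesis. A further list of 9 genes held cytochrome c genes, Slc25 carriers, Vdac1 to Vdac3 and Ndufab1, and 8 of them passed the filter. In each list 0 genes had an unadjusted p under 0.05 in edgeR in all 12 rats (background 1.07%) or without rat 6 (background 1.40%). A count of 0 in lists of this size is near those shares. The median log2 fold changes of these lists, in that order, were 0.02, 0.03, 0.06 and 0.05 in all 12 rats. Cs, which encodes citrate synthase, had a mean RNA level of 197 ± 10.6 CPM with boldine (SD, n = 6). It was 196 ± 19.7 CPM in the blast-controls other than rat 6 (SD, n = 5). Mitochondrial content itself was not measured. Ppargc1a, the coactivator of mitochondrial biogenesis, was at 72.2 ± 32 and 66.1 ± 28.8 CPM, and Cycs, cytochrome c, at 62.1 ± 12.2 and 62.0 ± 12.4 CPM.

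Among the transcription factors whose letters were searched, Nrf1 was at 20.3 ± 4.20 CPM in blast-boldine rats and 19.9 ± 3.92 CPM in blast-controls without rat 6, and Gabpa at 50.1 ± 7.81 and 48.0 ± 4.05 CPM. Tfam, which drives transcription of mitochondrial DNA, was at 32.4 ± 6.63 and 29.1 ± 8.93 CPM. With library set as a covariate and without rat 6, Polrmt, the mitochondrial RNA polymerase, had a log2 fold change of -0.21 (unadjusted p = 0.0349, adjusted p = 0.898 in edgeR), and it was the regulator named here after its value was seen, as 1 of 18 under an unadjusted p of 0.05, with a background of 5.35%.

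The cytosolic ribosomal proteins are another set of short, abundant transcripts, and 77 of 82 passed the filter. Their median log2 fold change for treatment was -0.08, and 1 of 77, Rps16, had an unadjusted p under 0.05 (log2 fold change -0.45, SE 0.15, unadjusted p = 0.00988, adjusted p = 1.0 in edgeR), with a background of 1.07%, named after its value was seen. Between the library sets their median difference was 0.58, beside 0.60 for the oxidative phosphorylation subunits. It was 0.44 for the list of cytochrome c, carriers, Vdac genes and Ndufab1, and 0.36 for the TCA cycle. It was 0.25 for the assembly factors and -0.29 for the biogenesis regulators. Within this last list Ppargc1a was lower in set A (-1.09) and Esrra, the nuclear receptor it acts on, was higher (1.12).

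In rat 6 few members could be read. Of the 79 members that passed the filter, 22 had 0 counts there, 19 had 1 or 2 counts, and 38 reached 3 counts. The 82 members took 0.509% of its counts (exact 95% confidence interval 0.459% to 0.563%), against 0.557% to 1.06% in the other rats. For 11 members rat 6 was the highest of the 12 rats, among them Atp5if1, Cox4i1, Uqcrh and Ndufb10, while Ndufa8, Cox6a1 and Cox7a2l, at above 50 CPM in each other rat, had 0 counts there, which allows up to 47.5 CPM.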

How the data were processed

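Per the labels, 12 libraries were counted, each from a separate rat. Before deposit the authors used HTStream for trimming and for the removal of PCR duplicates, STAR 2.7.11b for alignment (genome mRatBN7.2, up to 20 alignments per read), and counted reads on RefSeq exons by gene name and strand with featureCounts (Subread 2.0.1). The deposited values are these raw counts, without normalization. No option that counts reads with several alignments is stated, so members with near-identical copies may be undercounted.

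Members and lists were chosen with earlier results of these data known. The 82 symbols all had a RefSeq entry (Atp5md is now Atp5mk), and 5 members share exon bases with a gene on the other strand. The genes named in full were core subunits, paralog families, the 2 members of smallest p in each complex, members at an unadjusted p under 0.05 or with groups that did not overlap, and the most and least abundant member of each complex, 38 in all, and 1 further core subunit and 1 marker gene are not reported here. Further members were named for their place in the order between the library sets.

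All genes were fitted with edgeR 4.0.16 in R 4.3.3 (quasi-likelihood test, TMM, filterByExpr with its minimum of 10 counts, two-sided p, Benjamini-Hochberg over 12325 genes, threshold 0.05), and the scripts were tested on simulated data. DESeq2 1.42.0 and limma-voom (limma 3.58.1) were alternatives, as were other size factors and filters, robust empirical Bayes, offsets for gene length in 100 bins, the 4 library set assignments and leaving out each rat. Log2 CPM used a prior count of 2. Permutation tests were exact, run in Python 3.11.15 (scipy 1.17.1, numpy 2.4.6, pandas 2.3.3), with plots by matplotlib 3.10.9. Totals were 10148474 to 40850106 counts per rat and 74008 in rat 6. Nothing states that rats were from separate litters, so p-values measure the spread between these rats.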

Additional observations from a re-analysis of the deposited data

Results flagged for a closer look

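Among 50 groups of 6 rats examined, 5 had a rat set apart by more than Dixon's 95% critical value for 6 samples, and chance alone gives about 1 in 20. In 4 of the 5 that rat was blast-control rat 6, where 1 count is worth 15.8 CPM. Atp5if1 was at 1013 CPM in rat 6 and the next blast-control was at 430 CPM. Cox4i1 was at 665 CPM in rat 6 and at 339 CPM in the next blast-control. Uqcrh was at 317 CPM in rat 6 and at 151 CPM in the next. Atp5me was at 95 CPM in rat 6 and at 62.7 CPM in the next. The other was Ndufb4, for which blast-boldine rat 12 was at 69.8 CPM and the next blast-boldine rat at 58.3 CPM.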

How the results depend on the processing

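No setting gave a member an adjusted p under 0.05. The count of members higher at an unadjusted p under 0.05, 0 in all 12 rats, was 1 with DESeq2 with library set without rat 6, with gene length offsets with or without rat 6, with library set as a covariate with or without rat 6, with library set assignments 2 and 3, and with limma-voom, and between 0 and 2 when 1 rat was left out. Each 1 was Ndufb4, and the 2, without blast-control rat 9, were Ndufb4 and Ndufa10l1. In all, Ndufb4 was called in 9 of 28 settings. The share of all genes called was 1.36% and 1.01% with length offsets (without and with rat 6) and 1.56% and 1.14% with assignments 2 and 3, near the 1.27% that 1 of 79 makes. The median log2 fold change of all members lay between -0.089 and -0.011 over the settings and between -0.13 and 0.087 when each rat was left out in turn.

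Fold changes near 0, and those of Cox4i1 (-0.17) and Atp5if1 (-0.53), changed sign, none of them past the threshold, and the cause was not tested. Atp5f1b (0.0098) was -0.078 with DESeq2 with library set without rat 6, -0.078 and -0.031 with library set (without and with rat 6), -0.029, -0.032 and -0.013 with assignments 2 to 4, -0.11 and -0.0068 with length offsets (without and with rat 6), -0.074 with limma-voom and -0.010 with upper quartile factors. Uqcrfs1 (0.017) was -0.023, -0.025 and -0.0029 in the first 3 of these fits, -0.0016 and -0.0097 with assignments 2 and 3, -0.035 with length offsets without rat 6, -0.038 with limma-voom and -0.0024 with upper quartile factors. Cox6c (-0.019) was 0.011, 0.011 and 0.0065 in those 3 fits, 0.014 with assignment 2, 0.065 and 0.034 with length offsets and 0.023 with limma-voom. Cox4i1 was 0.027 with DESeq2 with library set without rat 6, 0.026 with library set without rat 6, 0.074 with length offsets without rat 6 and 0.030 with limma-voom. In the first, second and last of these fits Sdhb (0.044) was -0.0022, -0.0040 and -0.0035, and Atp5if1 was 0.16 with length offsets without rat 6 and 0.10 with limma-voom.

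Leaving out 1 rat moved Atp5f1b between -0.13 and 0.20, Atp5if1 between -0.76 and 0.035, Cox4i1 between -0.24 and 0.046, Cox5a between -0.38 and 0.070, Cox6c between -0.066 and 0.041, Cyc1 between -0.30 and 0.088, Ndufv1 between -0.12 and 0.063, Sdha between -0.015 and 0.12, Sdhb between -0.054 and 0.13, Uqcrc1 between -0.18 and 0.0018, and Uqcrfs1 between -0.069 and 0.13. Without rat 6 the sign of the difference in mean log2 CPM changed for 18 of the 38 members tested by permutation, 0 of them with a p under 0.05 in either. Of those chosen for a small edgeR p, these were Atp5if1, Cox4i1, Sdha and Sdhb (exact permutation p = 0.810, 0.662, 0.842 and 0.786 without rat 6). The median difference within set A was 0.0082 without rat 1 and that within set B was 0.074 without rat 4, both chosen after seeing the data. No paired analysis was possible because the groups share no rat number. Depth limits every value that includes rat 6, where 41 of 79 members were under 3 counts. The summed level of the neuronal markers in rat 6 was also unlike that of the other rats.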
